A study of Mus musculus with 2 samples.

Results

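The cytosolic ribosomal proteins, the protein components of the ribosomes that translate nuclear mRNAs, were examined in the gastrocnemius, a calf muscle, of wild-type C57BL/6 mice. They were taken by name: every probe of the array whose gene name begins with Rpl, Rps or Rplp and a digit, and Rpsa, leaving out the kinases named Rps6k and the names Rpl3, Rpl3l, Rpl22, Rpl22l1, Rpl39, Rpl39l, Rps27 and Rps27l. This gave 166 of the 39418 probes with a value on the array, for 78 of 31820 gene names. Of these, 47 names with 103 probes belong to the large subunit by name, and 31 names with 63 probes to the small subunit. The names include 72 true subunit genes, 43 large and 29 small, and 6 that are not standard subunits, namely the relatives Rpl7l1, Rpl10l, Rpl26l1, Rpl36al and Rps4y2 and the binding protein Rps19bp1.

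The cast group were male mice, 9 weeks old, with the hindlimb immobilized in plaster for 11 days, which takes load off the muscle. The control group were male mice of the same age and strain, labelled only as control. RNA of each group was pooled, apparently from 6 mice a pool, and measured on 1 single-colour Cy3 array of 60-base probes. Each group was therefore n = 1 array, no value has a p-value or a replicate error, and a difference describes these pools alone. Whole muscle was used, so fewer cells of a type and less RNA per cell cannot be told apart.

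A ribosome has a large subunit, which forms the peptide bond and holds the tunnel through which the new chain leaves, and a small subunit, which holds the mRNA and decodes it. One copy of almost every ribosomal protein goes into each ribosome, and cells make the proteins in matched amounts. Their mRNAs begin with a run of pyrimidines, the terminal oligopyrimidine tract, through which the kinase mTOR regulates their translation. Muscle mass depends on how much ribosome a fibre has to make protein with, and on how fast protein is broken down.

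Probes of the genes at both ends of the range are shown here, with their mm9 position from the array's annotation, to show what the array carries for them. For Rps2 and Rpl9 the printed probe is the second one, and the gene's value comes from a brighter probe. The first 4 belong to the genes with high ratios and the next 3 to those with low ratios. They are written 5′ to 3′ in lower case. The probe of Rps25 (chr9:44216951-44218094, plus strand) is divided over 1144 bases of the genome. The others lie at chr11:29445914-29445973 (Rps27a, minus), chr10:29418680-29418739 (Rpl12, minus), chr15:34371013-34371072 (Rpl30, minus), chr17:24857583-24857642 (Rps2, plus), chr11:68716730-68716789 (Rpl26, plus) and chr5:65779821-65779879 (Rpl9, minus). Which exon or untranslated region each lies in was not looked up, since mm9 gene models were not used here.
Rps25: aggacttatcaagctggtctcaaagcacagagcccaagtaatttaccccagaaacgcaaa
Rps27a: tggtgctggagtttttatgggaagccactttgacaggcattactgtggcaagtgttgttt
Rpl12: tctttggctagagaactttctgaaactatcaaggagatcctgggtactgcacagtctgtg
Rpl30: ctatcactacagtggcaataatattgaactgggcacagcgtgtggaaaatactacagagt
Rps2: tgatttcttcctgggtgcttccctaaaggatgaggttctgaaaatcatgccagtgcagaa
Rpl26: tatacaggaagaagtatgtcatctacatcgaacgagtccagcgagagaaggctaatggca
Rpl9: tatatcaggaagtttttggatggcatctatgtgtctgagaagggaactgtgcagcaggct

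Signals are given as scaled intensity, the processed brightness of a probe with the 75th percentile of its array set to 100. That percentile was a processed signal of 486 on the cast array and 385 on the control array. A log2 ratio is the cast over the control value on this scale. A gene was measured when the scanner software marked one of its probes as well above background in both pools, and its value is that of the probe with the highest signal. By this rule 161 of the 166 probes and 77 of the 78 genes were measured. Of the other 5 probes, 1 was well above background on the control array only and 4 on neither array. Both probes of Rpl10l, a retrogene relative of Rpl10 known from testis, were among the 4, so that Rpl10l has no value. No gene spot was saturated.

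The scanner software's error model gives each log2 ratio of these genes an SD of 0.20 to 0.23. The SD between repeated spots, over 259 measured probes with several spots, had a median of 0.10 for a log2 ratio. Neither covers the spread between mice or hybridisations. The muscle markers Acta1, Ckm, Myh4, Myh1, Tnnt3, Tnnc2, Mb and Pvalb were all measured, with a summed scaled intensity of 321768 on the cast array and 377371 on the control array, and 1 of the 8, Myh1, was above 0 in log2 ratio.

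Nearly all ribosomal protein genes had slightly more signal on the cast array, with medians of 0.36 in both subunits. Of the 77 measured genes, 75 (97.4%) had a log2 ratio above 0, where 47.1% of all 17779 measured genes did. The median over the 77 genes was 0.36, against -0.03 over all measured genes, a difference of 0.39. This is a small shift held by many genes rather than a large one. A ratio of 1.5-fold or more towards the cast array was reached by 8 of the 77 genes (10.4%), a share near the 7.23% of all measured genes, and 0 were at least 1.5-fold lower, against 8.12%. In these pools 0 were at least 2-fold higher, against 2.3% of all measured genes. The log2 ratio of 34 of the 77 exceeded 2 times its error-model SD, as it did for 12.7% of all measured genes and 21% of the brightest 10% of them.

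The 72 true subunit genes were all above 0 under this scaling, 43 of the large and 29 of the small subunit. With quantile normalization Rpl26 and Rps2 were at or below 0, and with a loess on signal Rpl26, Rpl9 and Rps2 were, leaving 70 and 69 of the 72 above it. With the mean of a gene's measured probes in place of the brightest, Rpl15 was at -0.04 and 71 were above 0. The relatives and the binding protein had a median of 0.0012 over the 5 measured. Rpl26l1 had a scaled intensity of 1569 on the cast array and 1546 on the control array, and Rpl36al, a relative of Rpl36a, had 2935 on the cast array and 2932 on the control array. Rps4y2, whose accession now carries the symbol Rps4l, was dim, with 56.4 on the cast array and 56.1 on the control array. The only members below 0 were Rps19bp1, which binds Rps19 and is no part of the ribosome, and Rpl7l1, a relative of Rpl7. Rps19bp1 had 261 on the cast array and 275 on the control array, a log2 ratio of -0.08. Rpl7l1 had 25.3 on the cast array and 29.4 on the control array, -0.22.

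**Figure D1:**
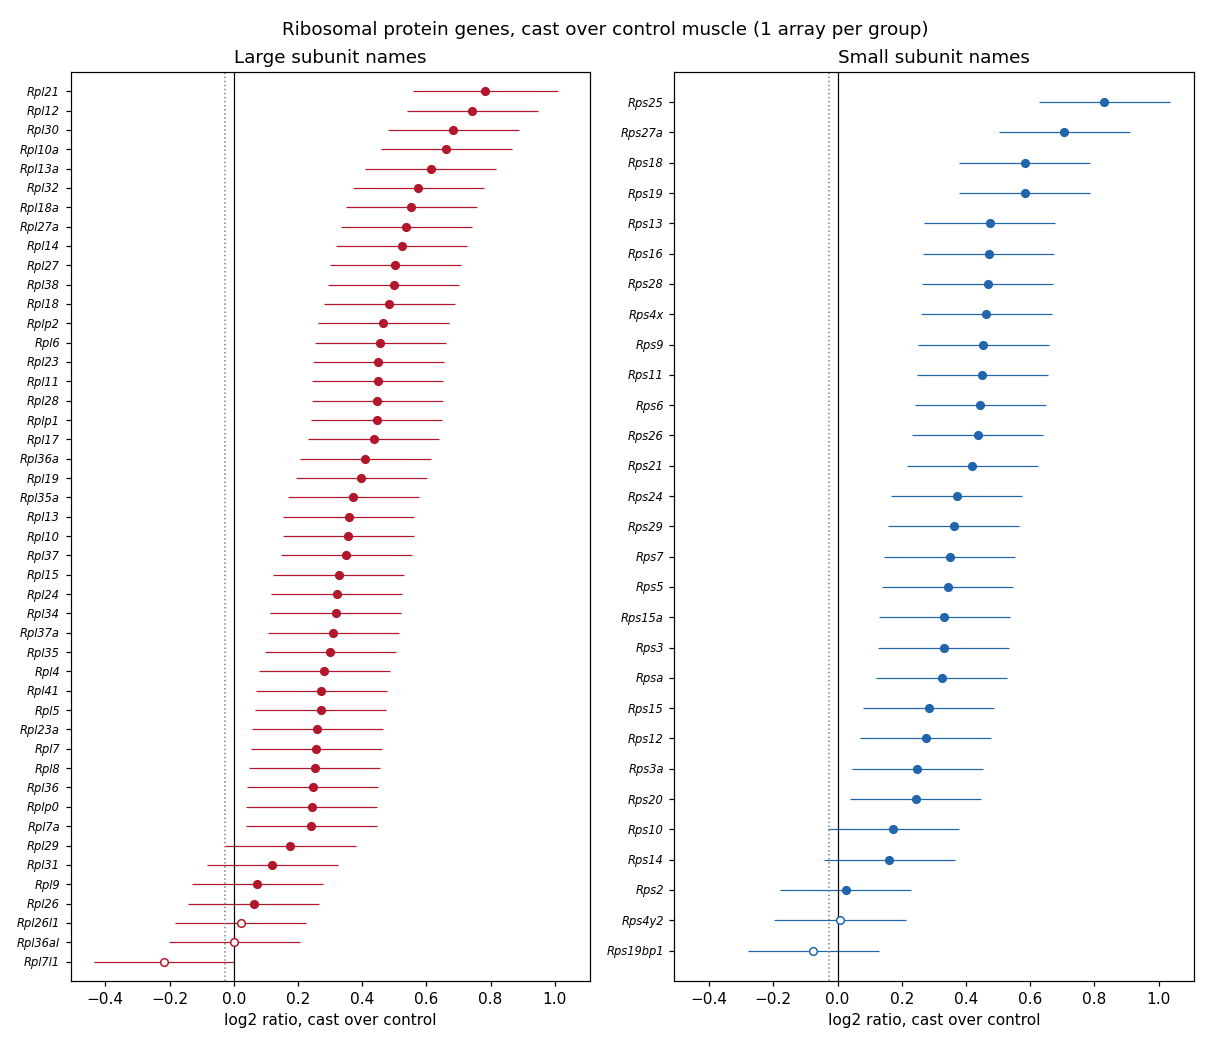
Log2 ratio of measured genes reported by name, cast over control, with names of the large subunit on the left and of the small subunit on the right. Points are single probes on 1 array per group, bars are 1 SD of the scanner software's error model, open points are names that are not standard subunits, and the dotted line is the median of all measured genes at -0.03; every filled point shown lies right of 0.

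Large and small subunits were then compared, since a ribosome needs both. The large-subunit names had a median log2 ratio of 0.36 over 46 measured genes, with quartiles of 0.26 and 0.48. The small-subunit names had a median of 0.36 over 31 genes, with quartiles of 0.28 and 0.47. The difference of the medians, large minus small, was -0.0034. Above 0 were 45 of 46 large-subunit and 30 of 31 small-subunit genes, against 47.1% of all measured genes. At least 1.5-fold higher were 5 (10.9%) and 3 (9.68%), shares near the 7.23% of all measured genes. The SD between genes was 0.20 in both. Summed over the genes, scaled intensity was 607563 on the cast array and 470307 on the control array for the large subunit, a ratio of 1.29. For the small subunit the sums were 404657 on the cast array and 316065 on the control array, a ratio of 1.28. Genes are not replicates, so this difference has no test.

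The small subunit held the gene with the highest ratio. Rps25, a protein of the head of the small subunit that several viral internal ribosome entry sites need, had 12677 on the cast array and 7125 on the control array, 1.78-fold higher on the cast array. It was in place 586 among all 17779 measured genes by log2 ratio. Its second probe was at 2.12 on the cast array, not well above background there, and 4.93 on the control array. Rps27a, which is made as a fusion with ubiquitin and so also supplies ubiquitin, had 19685 on the cast array and 12072 on the control array. That is 1.63-fold higher, while its second measured probe had 4917 on the cast array and 4045 on the control array, a log2 ratio of 0.28. Rps18, which contacts the large subunit from the head, had 6577 on the cast array and 4389 on the control array, a log2 ratio of 0.58. Rps19, the gene most often mutated in the human anaemia of Diamond and Blackfan, had 3351 on the cast array and 2237 on the control array, also 0.58. Rps13 had 12692 on the cast array and 9135 on the control array, a log2 ratio of 0.47. The error bars of these genes overlap, so their order is not resolved.

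At the low end of the small subunit were Rps20, Rps10, Rps14 and Rps2. Rps20, a head protein, had 27831 on the cast array and 23505 on the control array, a log2 ratio of 0.24. Rps10, also of the head, had 14793 on the cast array and 13112 on the control array, a log2 ratio of 0.17. Rps14, a protein of the platform, had 38490 on the cast array and 34439 on the control array, a log2 ratio of 0.16. All 3 were closer to 0 than 2 error SDs. Rps2, which lines the entry of the mRNA channel, had 12995 on the cast array and 12772 on the control array, 1.02-fold. That Rps2 probe is annotated on another stretch of chromosome 17 than the printed one, which had 10318 on the cast array and 9354 on the control array, a log2 ratio of 0.14.

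In the large subunit the highest was Rpl21, but from a dim probe, at 29.5 on the cast array and 17.2 on the control array. Its second probe, also dim, had a log2 ratio of 0.26, so its value is uncertain. Rpl12, at the base of the stalk, had 16387 on the cast array and 9796 on the control array, 1.67-fold higher. Its second probe gave nearly the same, a log2 ratio of 0.70 against 0.74. Rpl30, a protein at the face between the subunits, had 8339 on the cast array and 5194 on the control array, 1.61-fold higher, and its other probes gave log2 ratios of 0.59 and 0.39. Rpl10a, the protein of the L1 stalk through which spent tRNA leaves, had 16788 on the cast array and 10607 on the control array, 1.58-fold higher. Both of its probes were more than 0.5 above 0. Rpl13a had 7264 on the cast array and 4746 on the control array, a log2 ratio of 0.61, but its second, dimmer probe had 226 on the cast array and 229 on the control array, -0.02. Rpl32 had 15667 on the cast array and 10523 on the control array, a log2 ratio of 0.57.

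The lowest of the large subunit were Rpl29, Rpl31, Rpl9 and Rpl26. Rpl29 had 18787 on the cast array and 16632 on the control array, a log2 ratio of 0.18. Rpl9, near the base of the stalk, had 17602 on the cast array and 16732 on the control array, a log2 ratio of 0.07, and its second probe was at 0.14. Rpl26, at the exit of the peptide tunnel, had 8411 on the cast array and 8060 on the control array, a log2 ratio of 0.06, with its other probes at 0.14 and -0.0035. All 4 were within 1 error-model SD of 0. Rpl31 is described with the tunnel exit.

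Parts of the large subunit were looked at by role. The P stalk recruits the elongation factors and is built on Rpl12 and Rplp0, with the acidic proteins Rplp1 and Rplp2. Rplp2 had 29160 on the cast array and 21126 on the control array, a log2 ratio of 0.46. Rplp1 had 20045 on the cast array and 14723 on the control array, 0.45. Rplp0, often used as a reference gene in PCR, had 26095 on the cast array and 22059 on the control array, 0.24, and its other probes were at 0.43 and 0.27. The median of these 4 genes was 0.46. Rpl5 and Rpl11 bind the 5S rRNA and, when not built into ribosomes, the p53 regulator Mdm2. Rpl11 had 19100 on the cast array and 13990 on the control array, a log2 ratio of 0.45, and Rpl5 had 2551 on the cast array and 2113 on the control array, 0.27.

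Around the exit of the peptide tunnel, the 6 genes Rpl17, Rpl19, Rpl23a, Rpl26, Rpl31 and Rpl35 had a median of 0.28 and a range of 0.06 to 0.44. Rpl17 was the highest, with 7079 on the cast array and 5231 on the control array, and its 7 probes ranged from 0.01 to 0.44. Rpl19 had 8014 on the cast array and 6085 on the control array, a log2 ratio of 0.40. Rpl35 had 26819 on the cast array and 21786 on the control array, 0.30, and Rpl23a had 7871 on the cast array and 6573 on the control array, 0.26. Rpl31 had 9231 on the cast array and 8494 on the control array, 0.12. This group lay at or below the median of the subunit in 4 of 6 genes, within the error of single probes.

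Among small-subunit genes with a known second role, Rps6, the ribosomal protein that S6 kinase phosphorylates downstream of mTOR, had 8996 on the cast array and 6609 on the control array, a log2 ratio of 0.44. Rpsa, also known as the laminin receptor precursor, had 18334 on the cast array and 14636 on the control array, 0.32. Rpl10, Rpl36a and Rps4x lie on the X chromosome. Rpl10, which joins the large subunit late in its assembly, was at 0.36, Rpl36a at 0.41 and Rps4x at 0.46, within the range of the autosomal genes.

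**Figure D2:**
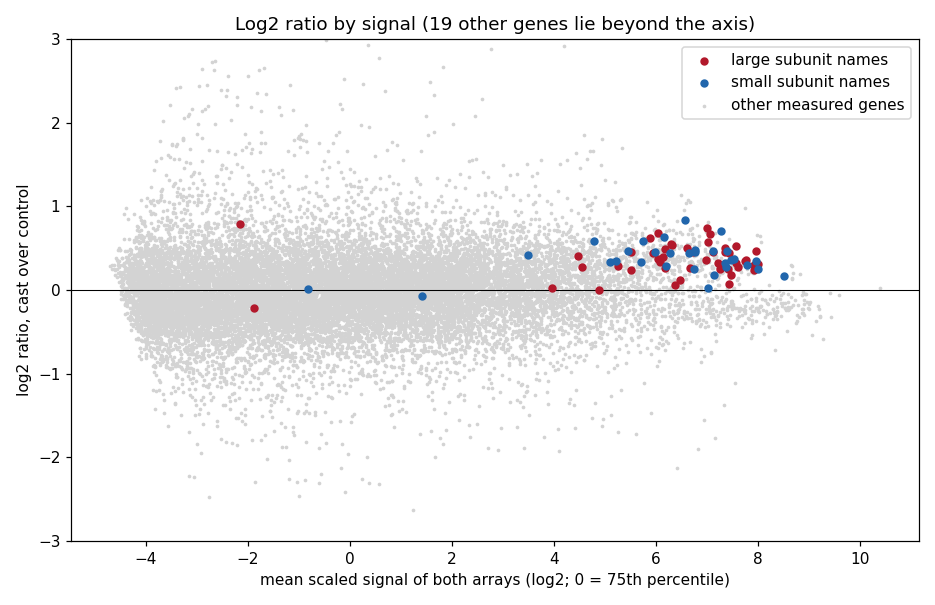
Log2 ratio, cast over control, against the mean scaled signal of both arrays in log2 units, for all 17779 measured genes, each a single probe on 1 array per group. Most of the ribosomal protein genes lie at the bright end, where 71 of them are in the top 10% of signal and all 71 are above 0; 19 other genes lie beyond the axis.

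Most of these genes are bright, and the ratio of bright genes had its own offset. The top 10% of measured genes by signal, 1778 genes, had a median log2 ratio of 0.08, and 56.5% of them were above 0. All 71 ribosomal protein genes in that set were above 0. Among the genes at or above the median signal, 51.6% were above 0, with 73 of 74 ribosomal protein genes. A loess on signal, which takes out such an offset, gave medians of 0.26 for the large and 0.28 for the small subunit and left 70 of 77 genes above 0. It left 5 genes at least 1.5-fold higher, where the 75th percentile scaling gave 8.

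The scale matters for the size. Without scaling between the arrays the median of all measured genes was 0.31, and 79.9% of them were above 0. Scaled on the spike-in controls, of which 7 were measured, it was 0.32 and 80.8%. The ribosomal protein medians then became 0.70 in both subunits without scaling and 0.71 in both with spike-ins. The distance to the median of all genes stayed at 0.38 for the large and 0.39 for the small subunit, since these scalings shift all genes alike.

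**Figure D3:**
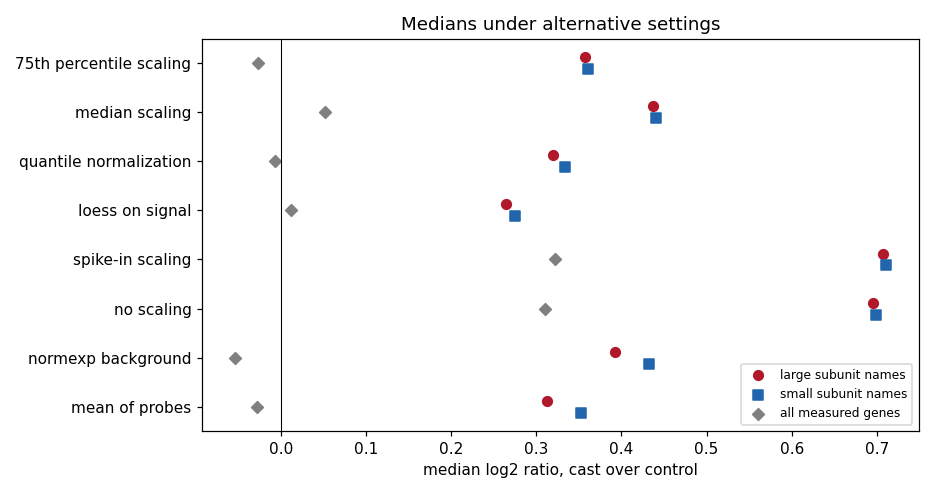
Median log2 ratio, cast over control, under 8 settings for the large-subunit names, the small-subunit names and all measured genes. The ribosomal protein medians lie right of the median of all genes in each of the 8 settings, and the large- and small-subunit medians lie within 0.05 of each other.

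Several probes measured 49 of the genes. They read the same pools, and some overlap in position, as those of Rpl38 do, so they are not repeats of the comparison. In 38 of the 49 all probes were above 0, and in 11 they differed in sign. The median spread between probes of a gene was 0.16. Over single probes, 148 of 161 (91.9%) were above 0, where 47.5% of all measured probes were. The 11 genes were Rpl13a, Rpl14, Rpl15, Rpl23, Rpl26, Rpl27a, Rpl31, Rps3, Rps6, Rps24 and Rpsa. The lowest probes of Rpl13a, Rpl14, Rpl23, Rpl26 and Rps3 were within 1 error-model SD of 0, so their sign is not resolved. Those of the others were farther from 0 than 1 error-model SD. In the 10 of the 11 genes whose lowest probe has a position, that probe was also the dimmest of the gene. In Rps3 it was not: its lowest probe had 2427 on the cast array and another of its probes 180.

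Their positions were compared after the values were known. In 8 of the 10 genes the lowest probe lay downstream of the brightest one on the same strand, by 142 to 1599 bases, and in the other 2, Rps24 and Rpl26, it lay upstream. Over all 498 placed genes whose probes differ in sign and whose brightest probe is above 0, the lowest probe lay downstream in 225, or 45.2%. It was also the dimmest in 89.7% of the 504 such genes, placed or not. For Rps6 the brightest probe (chr4:86500748-86500807, minus) had the values given above, while the probe 625 bases downstream (chr4:86500063-86500122) had 202 on the cast array and 268 on the control array, a log2 ratio of -0.41. For Rpl27a the brightest probe was at 0.54 and the printed one (chr7:116663505-116664038, plus) at 0.53, while the probe 1599 bases downstream of the brightest (chr7:116665756-116665815) had 301 on the cast array and 376 on the control array, a log2 ratio of -0.32. Rpl15 had a downstream probe at -0.40, with 488 on the cast array and 645 on the control array. Those of Rpl31 and Rpsa were far dimmer. That of Rpl31, at -0.46, had 21.0 on the cast array and 28.9 on the control array. That of Rpsa, at -0.42, had 6.43 on the cast array and 8.60 on the control array, with an error-model SD of 0.39. Sequences of some of these probes follow, with the downstream probes given by the first 30 of their 60 bases.
Rps6, brightest: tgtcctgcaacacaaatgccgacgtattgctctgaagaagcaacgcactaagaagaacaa
Rps6, downstream: tggtgtgtatcacaagttagcctgtgtagc
Rpl27a, second brightest: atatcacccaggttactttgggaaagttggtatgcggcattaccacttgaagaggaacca
Rpl27a, downstream: caacaggacatcactggttgggaatactgt
Rpl23, downstream: acaaaacacgcattcttttcaggtctttgc

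The downstream Rpl23 probe is the only one of the family printed 10 times on each array. Its spots had an SD of 0.06 on the cast array and 0.08 on the control array in log2 units, with means of 156 on the cast array and 167 on the control array. The log2 ratio was -0.09, a difference between means of 10 spots. The SD of 0.10 for this log2 ratio is that of single spots, so it is not the error of the means. The other Rpl23 probes, with 1 spot on each array, were at 0.45 and 0.40, each with an error-model SD of 0.20. Which transcript each probe detects was not tested.

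**Figure D4:**
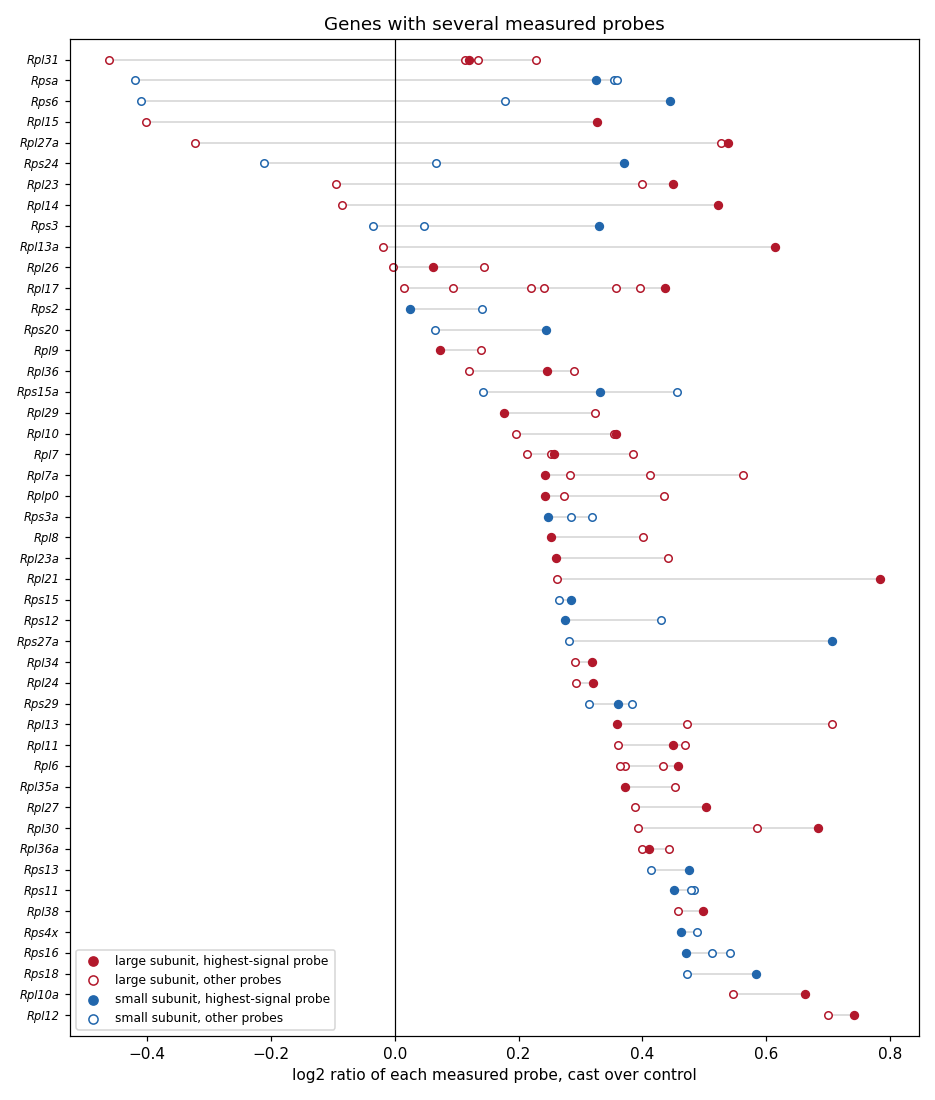
Log2 ratio, cast over control, of the measured probes of genes with several, in the order of their lowest probe. Filled points are the probe with the highest signal, whose value stands for the gene, and open points are the others; in 11 genes a probe lies left of 0 while another lies right of it.

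Ribosomal protein genes have many processed copies in the genome, and probes can bind their transcripts as well. Of 113 probes whose gene had a RefSeq promoter to compare with, 5 were annotated on another chromosome, for Rpl12, Rpl13, Rpl31 and Rps4x. Genes without a matched promoter were not compared. Among the probes not compared, one of Rpl36 is placed on the X chromosome while its others lie on chromosome 17. Both Rpl12 probes are placed on chromosome 10 of mm9, while the RefSeq gene lies on chromosome 2. The high ratio of Rpl12 therefore comes from probes that the array's annotation does not place at the gene itself.

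Promoters were examined because the genes shared a direction. RefSeq promoters (GRCm38.p6, 250 bases before to 50 after the start) were matched by symbol for 52 of the 72 subunit genes, 61 promoters in all. An unbroken run of at least 8 pyrimidines on the sense strand, from 30 bases before to 50 after the start, was in 45 of the 61 (73.8%) and in 29.0% of all 32851 promoters. It was in 30 of 37 large-subunit and 15 of 24 small-subunit promoters. At the annotated start itself, a C followed by 4 more pyrimidines was in 12 of 61 (19.7%) and in 2.51% of all promoters. The motif CCGGAAG, which ETS family factors bind, was on either strand of the 300 bases in 23 of 61 (37.7%) and in 8.86% of all promoters. TATAAA was in 4 of 61 (6.56%) and 13.6%. AAGATGGC, the core that YY1 binds, was in 5 of 61 (8.20%) and 2.75%. The sequence CTTTCC was in 31 of 61 (50.8%) and 26.6%, and CTTTTC in 15 of 61 (24.6%), near the 21.8% of all promoters. These 5 were searched on both strands of the 300 bases, and CCGGAAG and AAGATGGC can overlap by AAG.

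Within the family, genes with the pyrimidine run had a median log2 ratio of 0.37 (42 genes) and those without one 0.46 (10 genes). For the pyrimidines at the start itself the order was the other one, 0.43 with them (12 genes) and 0.36 without (40 genes). With CCGGAAG the median was 0.37 (22 genes) and without it 0.39 (30 genes). A stretch around the run, which begins 22 bases before the annotated start in Rps25 and within 3 bases before it in Rps6 and Rps10, is shown for a high, a middle and a low gene, with the run in capitals, on GRCm38.p6 at chr9:44407684-44407713 (Rps25, plus), chr4:86857349-86857378 (Rps6, minus) and chr17:27635227-27635256 (Rps10, minus).
Rps25 run: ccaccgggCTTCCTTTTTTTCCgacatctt
Rps6 run: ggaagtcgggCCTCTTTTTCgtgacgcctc
Rps10 run: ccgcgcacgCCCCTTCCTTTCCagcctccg

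Other genes of translation were set beside the family. Subunit genes that the naming left out had log2 ratios above 0 as well. Fau, which encodes Rps30 as a fusion, had 22463 on the cast array and 15386 on the control array, a log2 ratio of 0.55. Gnb2l1 (Rack1), a scaffold bound to the head of the small subunit, had 21090 on the cast array and 13893 on the control array, 0.60.

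Initiation factors had about the same median as the ribosomal proteins. It was 0.36 over 38 measured genes. Of these, 32 were above 0 and 5 at least 1.5-fold higher, against 47.1% and 7.23% of all measured genes. Eif3c, a core subunit of eIF3, had 8143 on the cast array and 3948 on the control array, 2.06-fold higher. The eIF2 subunits Eif2s3x and Eif2s2 were at 0.83 and 0.71, while the third, Eif2s1, was at -0.07. The cap-binding factor Eif4e was at -0.31 and its scaffold Eif4g1 at -0.17. Elongation factors had a median of 0.22, with 8 of 10 above 0. Eef2k, the kinase that inhibits eEF2, was at 1.27, Eef1a1 at 1.02 and Eef2 at 0.53, while Eef1a2, the muscle form of eEF1A, was at -0.20. A list of other mRNAs with a terminal pyrimidine tract had a median of 0.37, with 17 of 19 above 0. It shares Eef1a1, Gnb2l1, Fau and other genes with the lists just given. Apart from Eef1a1 its highest was Nap1l1 at 0.81, and its lowest members were Hnrnpa1 at -0.31 and Tpt1 at -0.05.

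Genes that build ribosomes had lower medians. Ribosome biogenesis factors had a median of 0.20, with 46 of 55 above 0 and 5 at least 1.5-fold higher. The shares of all measured genes were 47.1% and 7.23%, so the 1.5-fold count is near its share. The helicases Ddx21 and Ddx27 were at 0.94 and 0.92 and nucleolin (Ncl) at 0.80, and Pes1 was at -1.64. Genes of RNA polymerase I, which transcribes the large rRNA precursor, had a median of 0.09, with 7 of 13 above 0. That count is near the 47.1% of all measured genes above 0. The ones farthest from 0 were Taf1c at 0.42, Polr1e at 0.40 and Polr1d at 0.36.

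Mitochondrial ribosomal proteins, which form a separate ribosome inside mitochondria, had the other direction under this scaling. Their median was -0.16 over 74 measured genes. Of these, 20 were above 0, where 47.1% of all measured genes were. At least 1.5-fold higher were 0, against 7.23% of all measured genes. At least 1.5-fold lower were 5, a count near the 8.12% of all measured genes. The sign depends on the scale, since the median was 0.17 on unscaled signals and 0.19 on the spike-in scale. Mrpl15 had 12.3 on the cast array and 24.6 on the control array, both dim, while Mrps36 was at -0.77 and Mrps6 at -0.70. The median of the cytosolic ribosomal proteins was 0.52 above theirs, and 1 of the 74 mitochondrial genes reached the cytosolic median. With 1 array per group this difference has no test.

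**Figure D5:**
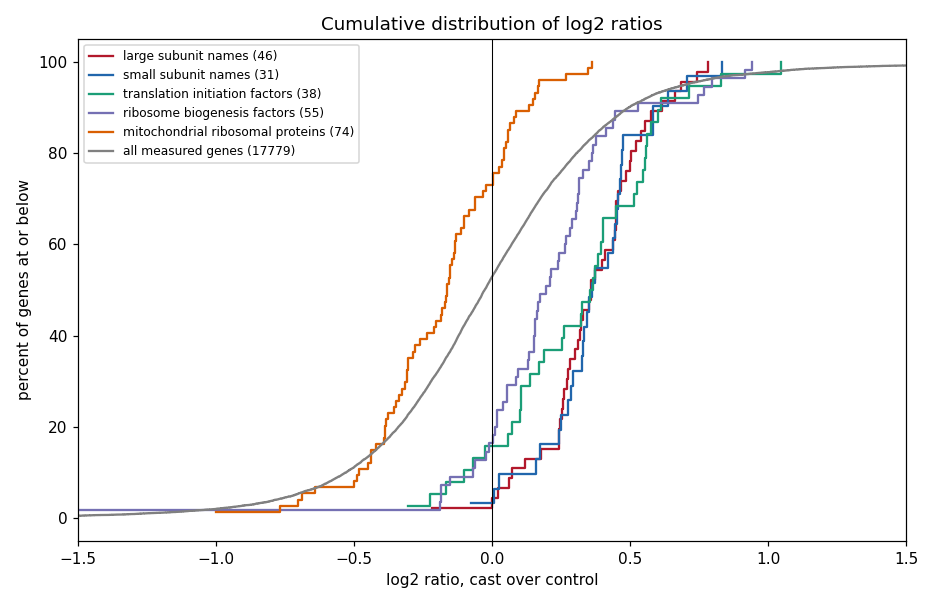
Cumulative distribution of log2 ratios, cast over control, for large-subunit names (46 genes), small-subunit names (31), translation initiation factors (38), ribosome biogenesis factors (55), mitochondrial ribosomal proteins (74) and all 17779 measured genes, with the number of genes in brackets. The subunits' curves run together with medians of 0.36, and the mitochondrial ribosomal proteins have a median of -0.16, either side of all genes at -0.03.

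Other cell types also hold ribosomes, and some of their markers differed between the arrays. The 5 fibroblast markers, all measured, were all below 0, with a summed scaled intensity of 12824 on the cast array and 21979 on the control array. Of 7 macrophage markers 5 were measured, with 1628 on the cast array and 1985 on the control array over all 7. Of those 5, Itgam was at -0.53 and Emr1 at -0.06, while Aif1 was at 1.17, Mrc1 at 0.50 and Csf1r at 0.01, and Cd68 and Cd163 were not well above background on either array. The neutrophil markers S100a8 and S100a9 were at 2.21 and 2.23 while Ly6g and Elane were below 0, and the 4 summed to 269 on the cast array and 98.2 on the control array. The lymphocyte markers summed to 101 on the cast array and 88.9 on the control array, and the endothelial ones to 799 on the cast array and 1074 on the control array. Adipocyte markers summed to 3455 on the cast array and 3862 on the control array, those of red blood cells to 25578 on the cast array and 22506 on the control array, and those of Schwann cells to 881 on the cast array and 890 on the control array. The satellite cell marker Cdh15 was at 1.35 and Pax7 at 0.08, and of the 5 markers of cycling cells 2 were measured, summing to 32.2 on the cast array and 27.6 on the control array over all 5. Their part in the ribosomal protein ratios was not tested.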

How the data were processed

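Spot intensities were deposited by the authors as 1 scanner file per array, made by Agilent Feature Extraction 9.5, as the submitters' processing notes name it. The processed intensity is, per the file headers, background-subtracted and detrended within the array, not normalized between arrays, with coordinates on mm9 and both arrays on 1 slide. The deposited table of the series holds the same intensity divided by its 75th percentile and multiplied by 100, with 54.9% of values rounded to whole numbers, and served as an alternative.

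From these files, non-uniform spots (9 on the cast array, 2 on the control array) were left out, log2 signals of repeated spots averaged and the 75th percentile subtracted. A probe counted as well above background when more than 0.5 of its spots carried the flag. The precision is limited by the number of arrays, 1 per group, so no test was run and sizes with a threshold of 1.5-fold are given. Genes were named by the array. The accession of 159 of 166 probes was found in the RefSeq table (GRCm38.p6), with the same symbol for 156. Alternatives were run with limma 3.58.1 in R 4.3.3 (quantile, loess, normexp with an offset of 50) and Python 3.11.15. The scaling was also run on simulated data with 1 equal shift of all probes and equal numbers of raised and lowered ones. Such data hold no offset that depends on signal, so they cannot test the scaling for bright genes.

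The members and gene lists were chosen with earlier results of these data known. The named genes are the 6 highest and 4 lowest subunit genes of each subunit, the stalk, 5S and tunnel genes, Rps6, Rps27a and Rpsa, genes whose probes differ in sign or by over 0.5, and the 3 most distant genes of other lists. Other genes were named after their values were seen. A few genes that these rules take are counted but not reported by name here.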

Additional observations from a re-analysis of the deposited data

How the results depend on the processing

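Medians of both subunits stayed above 0 and above the median of all genes under each alternative run, including one chosen after seeing the data, which left out the genes whose probes disagree. They were 0.70 for the large and 0.70 for the small subunit without scaling, and 0.71 and 0.71 with spike-in scaling. The difference between the subunits stayed within 0.05 of 0. The count of genes at least 1.5-fold higher, 8 of 77, depended most on the setting: it was 61 without scaling (24.3% of all genes), 65 with spike-in scaling (25%), 14 with median scaling (9.59%), 5 with quantile normalization (7.53%), 5 with loess (8.15%) and 3 with the mean of measured probes (6.98%). The count above 0, 75 of 77, became 148 of 161 with each probe as a unit, where more items are counted. Leaving out the scaling, or using the median or the spike-ins, shifts all genes alike, and the cause of the other changes was not tested. No paired analysis was possible because each group has 1 array. Dim probes limit Rpl21, Rps4y2 and Rpl7l1.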

Other observations

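Many processed copies of ribosomal protein genes have predicted transcripts. The array lists 112 of the 161 measured probes against at least 1 predicted transcript. Whether that is the gene's own or another was not checked. The median log2 ratio of these 112 was 0.37, with 111 above 0, and that of the 49 probes with none listed was 0.26, with 37 above 0. The listed probes were also brighter, with a median scaled intensity on the cast array of 8824 against 4917. The part of signal in this difference was not tested. By subunit the listed probes had medians of 0.39 for the large and 0.36 for the small subunit, and the others 0.26 and 0.26.

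Probes whose annotated position spans over 70 bases of the genome, so that they are divided over a gap, numbered 32, with a median of 0.38 and 31 above 0. The 128 with a shorter span had a median of 0.35 and 117 above 0. A limit of 1000 in scaled intensity on the cast array was chosen after the values were seen. Of the 21 measured probes under it 11 were above 0, a count near the 47.5% of all measured probes above 0. Of the 140 brighter ones 137 were above 0. The share of all measured probes on each side of this limit was not taken.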
